A study of Mus musculus with 16 samples.

Results

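Genes of T cells and natural killer (NK) cells were followed in RNA-seq values from primary mammary tumors of mice. The set holds 10 genes chosen by name, *Cd3e*, *Cd3g*, *Cd4*, *Cd8a*, *Foxp3*, *Gzmb*, *Nkg7*, *Prf1*, *Pdcd1* and *Ctla4*. *Ctla4* was not analysed here. The other 9 all passed the minimum mean of 10 over the tumors and were tested, as were 21034 genes of 23609 in all. The study asked whether lowering *Resf1* in mice that develop mammary tumors alters the disease. In the gene trap line, of C57BL/6 background, a lentiviral enhancer/gene trap that encodes EGFP and Cre sits in the first exon of *Resf1* and truncates its message. Gene trap mice were crossed with FVB mice that carry MMTV-PyMT, so that both groups carry the transgene for the polyoma middle T antigen under the MMTV promoter, which is active in mammary epithelium. The tumors came from wildtype and gene trap (Resf1 +/-) littermates, that is, mice with 2 intact copies of *Resf1* and mice with 1 trapped copy in every cell, so stroma and leukocytes carry the trap as well as the epithelium. No treatment was given, and the age of each mouse at collection is not given in the sources used here. Values from 5 wildtype and 5 gene trap tumors were used.

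T cells recognise antigen through the T cell receptor, whose signal is passed on by the CD3 chains, and the coreceptors CD4 and CD8 divide them into helper and regulatory cells on one side and mostly cytotoxic cells on the other. Cytotoxic T cells and NK cells both kill their targets by releasing perforin and granzymes from granules, so granule genes alone do not tell these cell kinds apart. FOXP3 is the transcription factor of regulatory T cells, and PD-1 and CTLA-4 are receptors that restrain activated T cells.

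The values are estimated read counts per gene that had been normalized between tumors before deposition, so the depth of each tumor is unknown and no count-based error can be given. *Resf1* was 4099 ± 400 (SD, n = 5) in wildtype and in gene trap tumors it was 3516 ± 361 (SD, n = 5), a difference of -0.22 on the log2 scale with an exact two-sided permutation p of 0.0635. *Epcam*, an epithelial adhesion gene used to check the tissue, lay between 19190 and 25278 in all 10 tumors. Over all tested genes, gene trap replicate 2 stood apart on the first principal component, at 91.8, while the other 9 tumors lay between -18.6 and -4.78. Gene trap replicate 3 was already known to have a high lymphocyte score when these genes were chosen, so its high values for lymphocyte genes are given as a description. Fold changes are on the scale of log2(value + 1), which understates the change of low genes, and intervals are 95% intervals of limma's fit.

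The genes of the T cell receptor complex and the coreceptors shared one pattern, with gene trap replicate 3 the highest tumor and wildtype replicate 1 the second. *Cd3e* (ENSMUSG00000032093), a signaling chain of the receptor complex, was 21.8, 5.34, 13.7, 10.2 and 13.1 in wildtype replicates 1 to 5 and 10.5, 6.34, 32.5, 5.59 and 3.68 in gene trap replicates 1 to 5. The 2 groups overlapped, and apart from replicate 3 the gene trap tumors lay in the lower part of the wildtype range or below it. The log2 fold change of *Cd3e*, gene trap over wildtype, was -0.39 (standard error 0.51, interval -1.50 to 0.72) with an exact two-sided permutation p of 0.524. In a bulk tumor, fewer T cells and less T cell RNA per cell cannot be told apart. *Cd3g* (ENSMUSG00000002033), another chain of the complex, was 61.3, 20.1, 38.2, 26.8 and 33.3 in wildtype and 29.2, 23.7, 70.2, 17.8 and 27.3 in gene trap tumors. Its high pair of tumors was the same as for *Cd3e*, and the groups overlapped. For *Cd3g* the log2 fold change was -0.16 (standard error 0.37, interval -0.97 to 0.65) with an exact permutation p of 0.706.

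*Cd4* (ENSMUSG00000023274), the coreceptor of helper and regulatory T cells, was 84.8, 30.4, 59.0, 40.1 and 55.3 in wildtype tumors and 48.8, 49.999, 140.4, 29.2 and 34.2 in gene trap tumors. Its value in gene trap replicate 3 was 2.84 times the median of the 10 tumors. The groups overlapped, and the log2 fold change was 0.01 (standard error 0.40, interval -0.87 to 0.88, exact permutation p of 0.992). *Cd8a* (ENSMUSG00000053977), a chain of the coreceptor of cytotoxic T cells that a subset of dendritic cells also carries, was 66.9, 22.4, 42.2, 33.7 and 37.7 in wildtype and 36.7, 27.6, 123.9, 17.01 and 22.7 in gene trap tumors. Apart from gene trap replicate 3, which stood far above them, the gene trap tumors overlapped the wildtype range. For *Cd8a* the log2 fold change was -0.14 (standard error 0.47, interval -1.16 to 0.88, exact permutation p of 0.810). From the lowest to the highest tumor, the spans were 8.83-fold for *Cd3e*, 7.28-fold for *Cd8a*, 4.81-fold for *Cd4* and 3.95-fold for *Cd3g*.

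**Figure D1:**
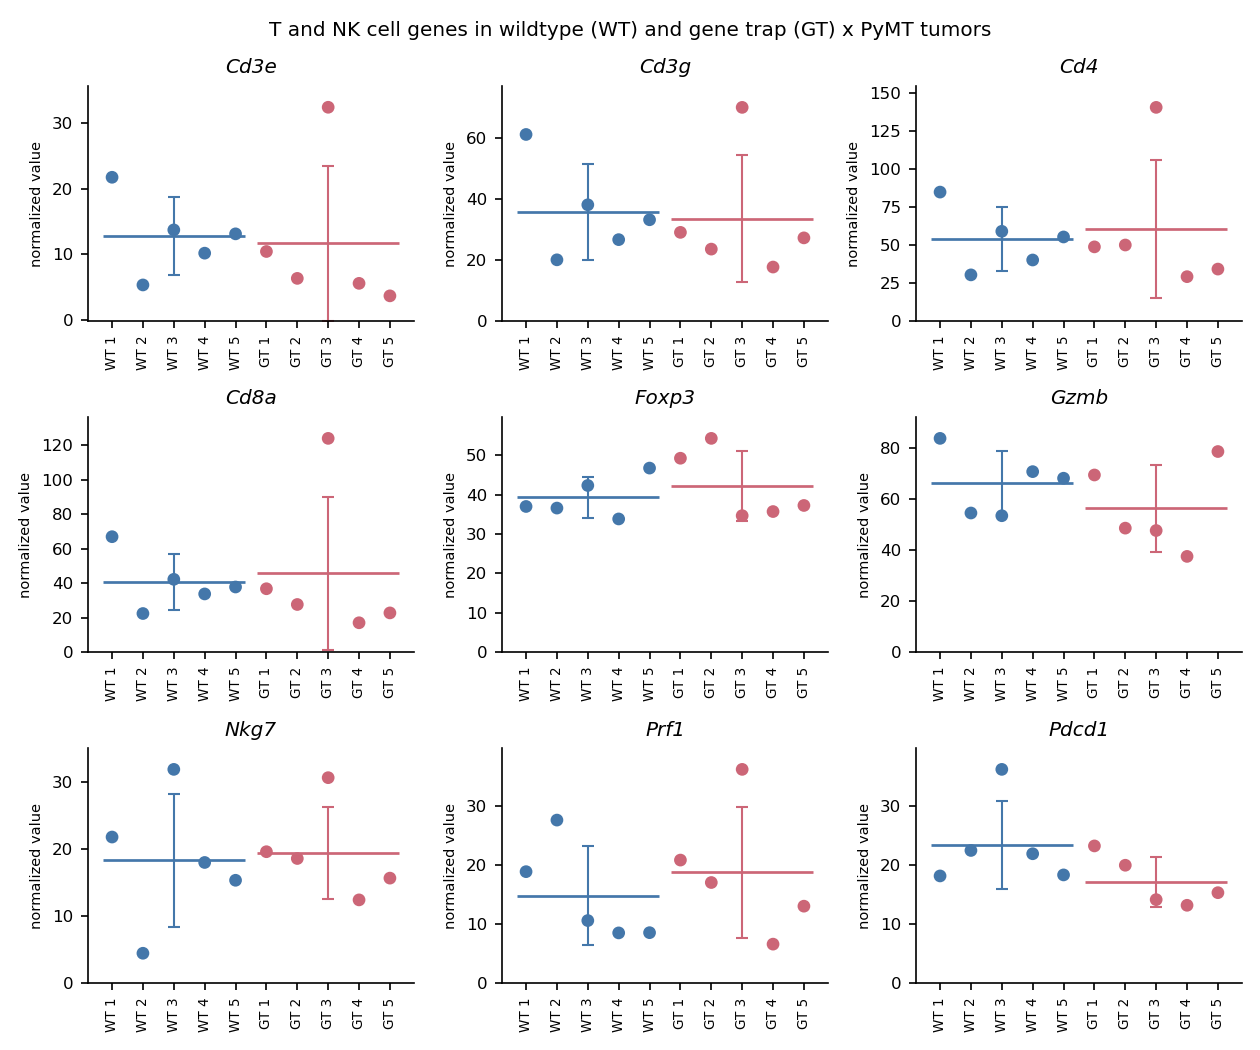
Normalized value (y axis, linear) of each of the 9 T and NK cell genes in each wildtype (WT, blue) and gene trap (GT, red) tumor, with the group mean (line) and SD (bar, n = 5). Gene trap replicate 3 is highest for *Cd3e*, *Cd3g*, *Cd4*, *Cd8a* and *Prf1*, at 32.5 for *Cd3e* and 123.9 for *Cd8a*, and ninth of the 10 tumors for *Foxp3*, *Gzmb* and *Pdcd1*.

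*Foxp3* (ENSMUSG00000039521), the regulatory T cell factor, did not share this pattern. It was 37.0, 36.6, 42.3, 33.8 and 46.8 in wildtype tumors and 49.3, 54.3, 34.7, 35.7 and 37.3 in gene trap tumors. The tumor with the most *Cd4*, gene trap replicate 3, was second lowest for *Foxp3*, and the groups overlapped. The lowest and highest tumor differed 1.61-fold, the smallest span of the 9 genes, and the log2 fold change was 0.09 (standard error 0.19, interval -0.33 to 0.51, exact permutation p of 0.579). In GENCODE M21 *Foxp3* overlaps 4 genes of the table, among them *Ccdc22* on the opposite strand, whose value was 574 to 745 over the 10 tumors. Whether counting used the strand is not given in the sources used here, so how far reads of these neighbors entered the *Foxp3* value was not tested.

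The cytotoxic granule genes differed from the receptor genes and from each other. *Gzmb* (ENSMUSG00000015437), the protease granzyme B, was 83.9, 54.6, 53.5, 70.8 and 68.2 in wildtype tumors and 69.5, 48.7, 47.7, 37.6 and 78.7 in gene trap tumors. Wildtype replicate 1 was highest, gene trap replicate 3 was ninth of 10, and the groups overlapped. The log2 fold change of *Gzmb* was -0.26 (standard error 0.23, interval -0.75 to 0.24, exact permutation p of 0.286). *Prf1* (ENSMUSG00000037202), the pore-forming perforin, was 18.9, 27.6, 10.6, 8.50 and 8.54 in wildtype and 20.8, 17.03, 36.2, 6.60 and 13.02 in gene trap tumors. The highest tumor was again gene trap replicate 3, but the second was wildtype replicate 2, which had the second lowest value of *Cd3e*. The log2 fold change of *Prf1* was 0.28 (standard error 0.44, interval -0.68 to 1.24, exact permutation p of 0.587).

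*Nkg7* (ENSMUSG00000004612), a granule membrane gene of NK and cytotoxic T cells, was 21.8, 4.46, 31.9, 18.0 and 15.4 in wildtype tumors and 19.6, 18.6, 30.7, 12.4 and 15.7 in gene trap tumors. Wildtype replicate 3 and gene trap replicate 3 were nearly equal at the top and wildtype replicate 2 was lowest, 7.16-fold below the highest tumor. For *Nkg7* the log2 fold change was 0.23 (standard error 0.43, interval -0.70 to 1.17, exact permutation p of 0.722). *Pdcd1* (ENSMUSG00000026285), which encodes PD-1, was 18.2, 22.5, 36.3, 22.0 and 18.4 in wildtype tumors and 23.3, 20.02, 14.2, 13.2 and 15.4 in gene trap tumors. The 3 lowest tumors were gene trap replicates 3 to 5 and the highest was wildtype replicate 3, while the other 6 tumors of the 2 groups were mixed. The log2 fold change of *Pdcd1* was -0.41 (standard error 0.25, interval -0.96 to 0.14, exact permutation p of 0.103), and its limma p of 0.130 before adjustment was the smallest of the 9 genes.

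The starts of 5 of these genes are shown as examples of granule genes and of receptor genes, which did not share a pattern over the tumors. Each sequence is a 300 base promoter window from RefSeq (GRCm38.p6), read 5′ to 3′ on the strand of the gene, and such windows were found for 9 of the 10 genes. Capitals mark the letters TGTGGT, a core of the RUNX motif, and GGAAGT, a core of the ETS motif, on either strand, and no marked stretches overlap. RUNX and ETS proteins are transcription factor families with known roles in T and NK cells. The windows are chr14:56262285-56262584 on the minus strand for *Gzmb*, chr10:61297586-61297885 on the plus strand for *Prf1*, chr7:43436888-43437187 on the plus strand for *Nkg7*, chr9:45009562-45009861 on the minus strand for *Cd3e* and chr6:71373177-71373476 on the plus strand for *Cd8a*.
Gzmb: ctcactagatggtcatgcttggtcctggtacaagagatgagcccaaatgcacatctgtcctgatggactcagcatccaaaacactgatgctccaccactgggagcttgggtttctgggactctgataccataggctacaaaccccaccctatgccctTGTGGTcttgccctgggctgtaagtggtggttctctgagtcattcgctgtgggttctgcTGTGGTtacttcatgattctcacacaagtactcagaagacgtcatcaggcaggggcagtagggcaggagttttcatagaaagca
Prf1: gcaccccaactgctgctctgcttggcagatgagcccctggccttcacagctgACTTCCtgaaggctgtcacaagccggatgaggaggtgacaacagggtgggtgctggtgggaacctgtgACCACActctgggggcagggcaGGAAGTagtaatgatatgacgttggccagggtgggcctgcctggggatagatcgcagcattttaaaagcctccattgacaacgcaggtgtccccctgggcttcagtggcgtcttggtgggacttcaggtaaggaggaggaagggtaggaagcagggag
Nkg7: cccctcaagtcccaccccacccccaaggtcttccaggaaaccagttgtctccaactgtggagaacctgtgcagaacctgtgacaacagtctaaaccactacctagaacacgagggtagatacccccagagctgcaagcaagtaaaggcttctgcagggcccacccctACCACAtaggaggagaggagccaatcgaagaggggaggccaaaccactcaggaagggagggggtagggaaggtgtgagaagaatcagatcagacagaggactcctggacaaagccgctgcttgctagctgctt
Cd3e: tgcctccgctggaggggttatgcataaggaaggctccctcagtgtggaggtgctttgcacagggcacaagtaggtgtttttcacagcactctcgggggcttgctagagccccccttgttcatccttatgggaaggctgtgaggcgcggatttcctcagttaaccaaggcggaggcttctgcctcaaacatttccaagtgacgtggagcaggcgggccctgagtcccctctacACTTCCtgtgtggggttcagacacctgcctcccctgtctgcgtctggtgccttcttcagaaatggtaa
Cd8a: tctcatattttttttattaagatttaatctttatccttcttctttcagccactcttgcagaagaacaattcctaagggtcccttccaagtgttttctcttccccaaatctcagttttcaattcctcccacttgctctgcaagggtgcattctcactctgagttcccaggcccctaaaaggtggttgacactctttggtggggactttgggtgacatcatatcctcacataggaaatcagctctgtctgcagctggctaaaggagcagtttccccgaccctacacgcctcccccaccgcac
The RUNX letters occurred 2 times in the *Gzmb* window and 1 time in each of the *Prf1* and *Nkg7* windows, and the ETS letters 2 times in the *Prf1* window and 1 time in the *Cd3e* window. The windows of *Cd8a*, *Cd3g*, *Foxp3*, *Pdcd1* and *Ctla4* held neither. Of all 32851 promoter windows, 16.8% held the RUNX letters, 23.8% the ETS letters and 4.18% both, so such matches are common, and they are a description of the letters and not of binding.

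Set against the whole table, none of the 9 genes passed the test between genotypes. With limma and Benjamini-Hochberg adjustment over all 21034 genes, 0 of the 9 had an adjusted p under 0.05, as did 0% of all genes, and the smallest adjusted p of any gene was 1.00. Without adjustment 0 of the 9 had a limma p under 0.05, against 2.28% of all tested genes. Between genotypes, 4 of the 9 were higher and 5 lower in gene trap tumors, and their median log2 fold change was -0.14 against 0.00 over all tested genes. The standard errors of the 9 were wide, with a median of 0.40 on the log2 scale against 0.16 over all tested genes, so differences of the size listed above were not detectable here.

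These estimates moved with gene trap replicate 3. Without it, the log2 fold change was -0.84 (standard error 0.40, exact permutation p of 0.0952) for *Cd3e*, -0.46 (standard error 0.31, p of 0.214) for *Cd3g*, -0.35 (standard error 0.30, p of 0.302) for *Cd4* and -0.59 (standard error 0.32, p of 0.135) for *Cd8a*. These 4 receptor and coreceptor genes lay lower in the remaining gene trap tumors, and none passed the test. Leaving out wildtype replicate 2 or 4 also lowered all 4 log2 fold changes. Without wildtype replicate 2 they were -0.64 for *Cd3e*, -0.34 for *Cd3g*, -0.18 for *Cd4* and -0.32 for *Cd8a*. Without wildtype replicate 4 they were -0.44, -0.24, -0.077 and -0.18 in the same order. Leaving out wildtype replicate 1 or gene trap replicate 4 raised all 4. Without wildtype replicate 1, the second tumor for these genes, the log2 fold changes were -0.18 for *Cd3e*, 0.052 for *Cd3g*, 0.19 for *Cd4* and 0.063 for *Cd8a*. Without gene trap replicate 4 they were -0.25, 0.019, 0.20 and 0.11 in the same order. For the other genes the values without gene trap replicate 3 were 0.15 for *Foxp3*, -0.21 for *Gzmb*, 0.06 for *Nkg7*, 0.00 for *Prf1* and -0.35 for *Pdcd1*. With gene trap replicates 2 and 3 both left out, *Cd4* was at -0.47 and *Prf1* at -0.11. The median of the 9 was -0.35 without gene trap replicate 3, with 6 genes lower, and -0.32 without wildtype replicate 2. It was 0.063 without wildtype replicate 1 and 0.11 without gene trap replicate 4. Without gene trap replicate 3 the median over all tested genes remained 0.00.

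**Figure D2:**
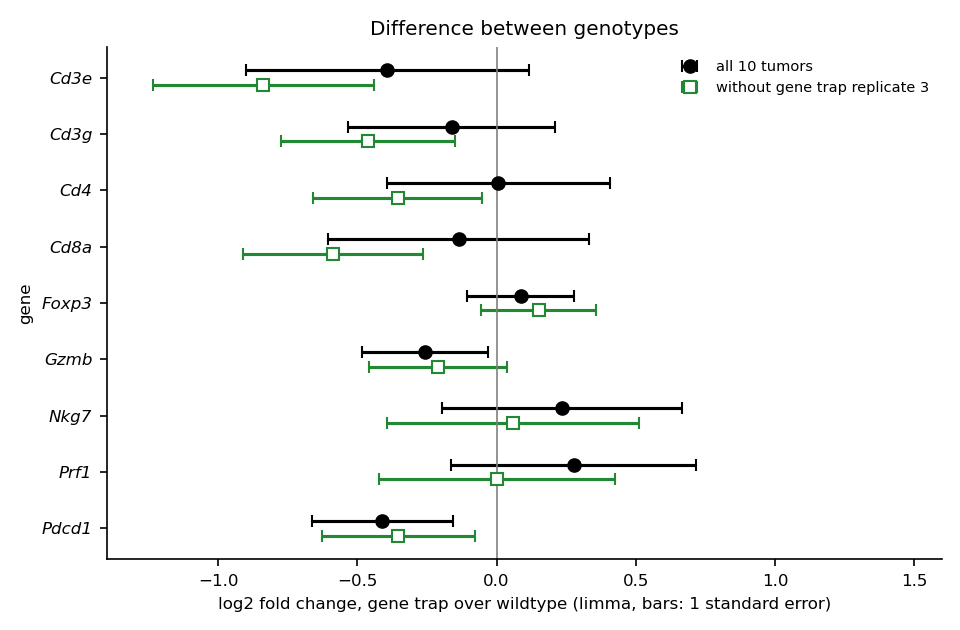
Log2 fold change of each gene, gene trap over wildtype, from limma (x axis), with bars of 1 standard error, for all 10 tumors (black circles) and without gene trap replicate 3 (green squares). Leaving that tumor out shifts *Cd3e* from -0.39 to -0.84 and *Cd8a* from -0.14 to -0.59, *Pdcd1* from -0.41 to -0.35, *Gzmb* from -0.26 to -0.21 and *Foxp3* from 0.09 to 0.15.

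Differences between single tumors were wider than those between the genotype means. Of the 9 genes, 5 were highest in gene trap replicate 3, against 7.29% of all tested genes, and the same 5 were at least 2-fold above the median of the 10 tumors there, against 1.15% of all tested genes. The ratios to the median were 3.52 for *Cd8a*, 3.15 for *Cd3e*, 2.84 for *Cd4*, 2.49 for *Cd3g* and 2.41 for *Prf1*. *Nkg7* was at 1.68 times its median, and *Foxp3*, *Gzmb* and *Pdcd1* were below theirs at 0.934, 0.777 and 0.739. Of the 9, 1 gene (*Gzmb*) was highest in wildtype replicate 1, against 9.31% of all tested genes, but this tumor was second for *Cd3e*, *Cd3g*, *Cd4* and *Cd8a*, at 2.11, 2.17, 1.72 and 1.90 times the median.

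Per kilobase of exonic length in GENCODE M21, the order of mean levels was *Gzmb* (42.7), *Nkg7* (20.6), *Cd4* (14.2), *Cd8a* (11.8), *Cd3g* (10.6), *Pdcd1* (10.5), *Foxp3* (8.91), *Prf1* (6.49) and *Cd3e* (3.01). *Gzmb* thus had the highest level per length although its value did not follow the receptor genes. Neighbors from *Nkg7* to *Prf1* overlapped widely over the tumors, with *Nkg7* at 4.87 to 34.9 and *Cd8a* at 4.68 to 34.1 per kilobase, so their order is not resolved, and *Cd3e*, at 0.901 to 7.96, overlapped *Prf1*, at 2.55 to 14.0. *Gzmb*, at 26.2 to 58.4 per kilobase, overlapped the top of the *Nkg7* range.

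Ratios within a tumor set 1 gene against another. Where a gene does not follow the T cell receptor genes over the 10 tumors, as was the case for *Gzmb*, *Foxp3* and *Pdcd1*, its ratio to *Cd3e* or *Cd4* largely reflects the denominator. Without gene trap replicate 3 and wildtype replicate 1, *Pdcd1* followed the receptor genes and *Foxp3* followed *Cd4* more closely, as given below. The ratio of *Cd4* to *Cd8a*, each with 1 added, was 1.26, 1.34, 1.39, 1.19 and 1.45 in wildtype and 1.32, 1.78, 1.13, 1.68 and 1.48 in gene trap tumors. It was lowest in gene trap replicate 3 but spanned little, so both coreceptors were high together there. The log2 ratio differed by 0.14 between genotypes, with an exact permutation p of 0.302 and an adjusted p of 0.543 over the 9 ratios. The ratio of *Foxp3* to *Cd4* was 0.443, 1.20, 0.722, 0.847 and 0.849 in wildtype and 1.01, 1.08, 0.252, 1.22 and 1.09 in gene trap tumors. Gene trap replicate 3 and wildtype replicate 1, which had the most *Cd4*, were the lowest tumors. Between genotypes this log2 ratio differed by 0.08, with an exact permutation p of 0.833.

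The ratio of *Gzmb* to *Cd3e* was 3.72, 8.77, 3.70, 6.42 and 4.89 in wildtype and 6.16, 6.76, 1.46, 5.86 and 17.05 in gene trap tumors. The lowest tumor was gene trap replicate 3 and gene trap replicate 5, with the least *Cd3e*, the highest. The ratio of *Pdcd1* to *Cd3e* was 0.453 in gene trap replicate 3, below the 0.843 to 3.71 of the other tumors. For *Nkg7* to *Cd3e* that tumor was ninth of 10 at 0.946, and for *Prf1* to *Cd3e* it was sixth at 1.11. For *Cd3g* to *Cd3e* it was also the lowest, at 2.13 against 2.42 to 6.06 in the other tumors. In gene trap replicate 3, then, the receptor and coreceptor genes were high relative to *Foxp3*, *Gzmb* and *Pdcd1*.

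None of the 9 ratios had an exact permutation p under 0.05 between genotypes. The smallest was that of *Cd4* to *Cd3e*, with a log2 difference of 0.40, an exact permutation p of 0.0794 and an adjusted p of 0.524. The other log2 differences were 0.67 for *Prf1* to *Cd3e*, 0.63 for *Nkg7* to *Cd3e*, 0.26 for *Cd8a* to *Cd3e*, 0.23 for *Cd3g* to *Cd3e*, 0.13 for *Gzmb* to *Cd3e* and -0.02 for *Pdcd1* to *Cd3e*, with exact permutation p from 0.159 to 0.976. Single tumors decided some of these values. The unadjusted exact permutation p of *Cd4* to *Cd3e* was 0.0476 without wildtype replicate 2 and 0.0397 without gene trap replicate 3, that of *Prf1* to *Cd3e* 0.0238 without wildtype replicate 2, and that of *Cd8a* to *Cd3e* 0.0317 without gene trap replicate 4.

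**Figure D3:**
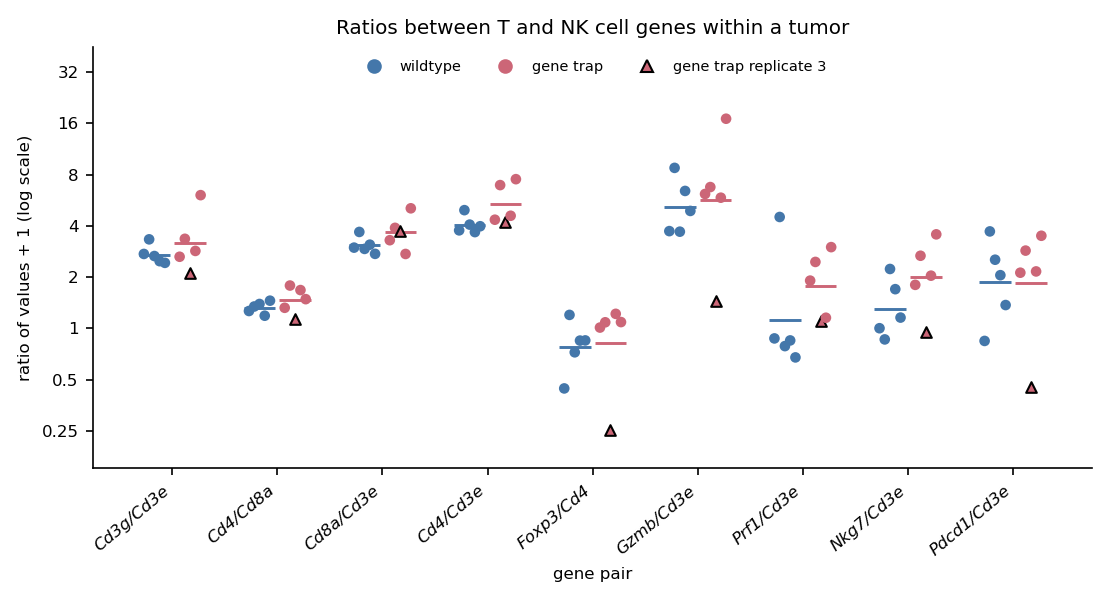
Ratio of 1 gene to another within each tumor, (value + 1)/(value + 1), on a log axis, for 9 pairs of genes in wildtype (blue) and gene trap (red) tumors, with the mean of log2 ratios as a line and gene trap replicate 3 as a triangle. The triangle is the lowest point for *Foxp3*/*Cd4* (0.252), *Gzmb*/*Cd3e* (1.46), *Pdcd1*/*Cd3e* (0.453), *Cd3g*/*Cd3e* (2.13) and *Cd4*/*Cd8a* (1.13). It lies within the other tumors for *Cd8a*/*Cd3e* and *Cd4*/*Cd3e*.

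To describe which cell kinds carried the high values, the level of a marker list in a tumor was taken as the median over its tested genes of the log2 ratio to each gene's median over the 10 tumors. No value was 0 in any of the 10 tumors. The T cell list was at 1.64 in gene trap replicate 3, at 1.11 in wildtype replicate 1 and between -0.61 and 0.38 in the other 8 tumors. Of its 19 tested genes (of 24), 16 were highest in gene trap replicate 3 and 16 were at least 2-fold above their median there, against the 7.29% and 1.15% of all genes given above. *Trac* passed the minimum mean only with that tumor included, so the counts hold a gene admitted through it. With no filter on low values the level was also 1.64. The level was 1.65 without the T cell receptor genes *Cd3e* and *Cd3g*. Other genes of the receptor and its signaling shared the pattern, among them *Cd8b1*, the partner chain of *Cd8a*, which was 43.6 in gene trap replicate 3, 28.8 in wildtype replicate 1 and 3.20 to 13.5 in the other tumors. *Cd8b1* too passed the minimum mean only with gene trap replicate 3 included. *Thy1*, *Bcl11b* and *Cd27* were the most abundant genes of the list, and *Thy1*, which fibroblasts also express, was at 1.05 times its median in gene trap replicate 3.

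The naive and memory T cell list was also highest in gene trap replicate 3, at 1.25 against -0.54 to 0.31 in the other 9 tumors, and 6 of its 7 genes, all tested, were highest there. The most abundant, *S1pr1*, *Tcf7* and *Il7r*, were at 1.43, 1.86 and 2.39 times their medians. *Klf2* was the exception among the 7, with 3 other tumors above gene trap replicate 3, where it was at 1.05 times its median. The list of CD4 helper and regulatory genes was at 0.29 against -0.15 to 0.16 (0.47 in gene trap replicate 3 when a mean over the genes replaced the median). Its most abundant genes *Lrrc32*, *Ikzf2* and *Tnfrsf18* were at 1.14, 1.04 and 1.14 times their medians. Their means were 659, 581 and 225 against 57.2 for *Cd4*, and which cells they came from was not tested. *Cd4*, *Il2ra* and *Tnfrsf4* were highest in gene trap replicate 3, at 2.84, 1.89 and 1.61 times their medians, while *Ikzf4* and *Foxp3* were at 1.33 and 0.934. Of the gamma delta T cell list 2 of 9 genes were tested, and their level of 0.00 says little of those cells.

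The NK list was also highest in that tumor, at a lower level than the T cell list. The NK list, with 6 of 16 genes tested, was at 0.48 in gene trap replicate 3, where the other 9 tumors ranged from -0.30 to 0.32, and 0 of the 6 were 2-fold above their median there. *Il2rb*, *Cd244a* and *Klrk1*, its most abundant genes, are also used by T cells and were at 1.65, 1.66 and 1.48 times their medians. Of its other tested genes, *Klrd1*, *Gzma* and *Klrb1c* were at 1.33, 1.01 and 0.999 times theirs, and of those below the minimum for testing, *Tbx21*, *Klrc1* and *Ncr1* were at 1.76, 1.70 and 0.915. The cytotoxic effector list (11 of 16 tested) was at 0.14 in gene trap replicate 3, behind 2 other tumors, with 1 gene, *Prf1*, 2-fold above its median. *Ctsw* and *Gzmc*, abundant granule proteases of that list, were at 1.38 and 0.908 times their medians. The inhibitory receptor list (8 of 10 tested) was at 0.27, second of the tumors, and its 1 gene above 2-fold was *Btla*, which B cells also carry, at 3.97 times its median.

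Markers of other leukocytes moved with the T cell genes in the same tumors, and their part in the values of the T cell genes was not tested. The B cell list, with 6 of 12 genes tested, was at 3.69 in gene trap replicate 3 and 1.64 in wildtype replicate 1, that is 12.9-fold and 3.12-fold over the median, against -0.62 to 0.45 in the other 8. Its summed value was 996 in gene trap replicate 3 and 56.8 to 319 in the other 9 tumors. *Spib*, 1 of the 6 tested genes, passed the minimum mean only with gene trap replicate 3 included. *Cd22*, *Cr2* and *Bank1*, receptors and a signaling adaptor of B cells, were at 6.37, 21.6 and 13.4 times their medians there. The B cell genes thus stood further above their medians than the T cell genes in this tumor, where the T cell list was 3.12-fold up.

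The list of lymph node stroma and follicle genes (5 of 10 tested) was at 2.61 in gene trap replicate 3, at 1.17 in wildtype replicate 1 and between -1.58 and 0.28 in the other 8, and shares *Cr2* and *Fcer2a* with the B cell list. *Ccl21a*, a chemokine of lymph node stroma and lymphatic vessels, was 173 in gene trap replicate 3, 102 in wildtype replicate 1 and 13.5 to 74.3 in the others. *Glycam1*, made by lymph node vessels and also by milk-producing mammary epithelium, was 349 in gene trap replicate 3 but 502 in wildtype replicate 5. The plasma cell list (4 of 10 tested) was at 2.60 in gene trap replicate 3 and 2.54 in wildtype replicate 5, where the T cell list was at 0.32. Whether lymph node tissue or lymphoid aggregates were part of a sample was not tested.

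Among other cell kinds in gene trap replicate 3, the dendritic cell list (10 of 10 tested) was at 0.76 against -0.31 to 0.29 in the other 9, the neutrophil list (6 of 8) at 1.23 against -0.53 to 0.95, and the general leukocyte list (10 of 10) at 0.44 against -0.34 to 0.10. *Ptprc*, the pan-leukocyte gene CD45, was 2774 in gene trap replicate 3 and 1040 to 2001 in the others. The macrophage list (11 of 11 tested) was at -0.11 there, within the range of -0.18 to 0.31 of the other 9 tumors, and 0 of its genes were highest there. The epithelial list was at -0.30 in both gene trap replicate 3 and wildtype replicate 1 and between -0.08 and 0.18 in the other 8. The mast cell, thymocyte, fibroblast, endothelial and cell cycle lists were at -0.60, -0.12, 0.02, 0.30 and -0.13 in gene trap replicate 3, each within the range of the other tumors. Of the mast cell list 3 of 6 genes were tested. Of the thymocyte list 1 of 5 was tested, *Cd1d1*, so its level says little of those cells.

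**Figure D4:**
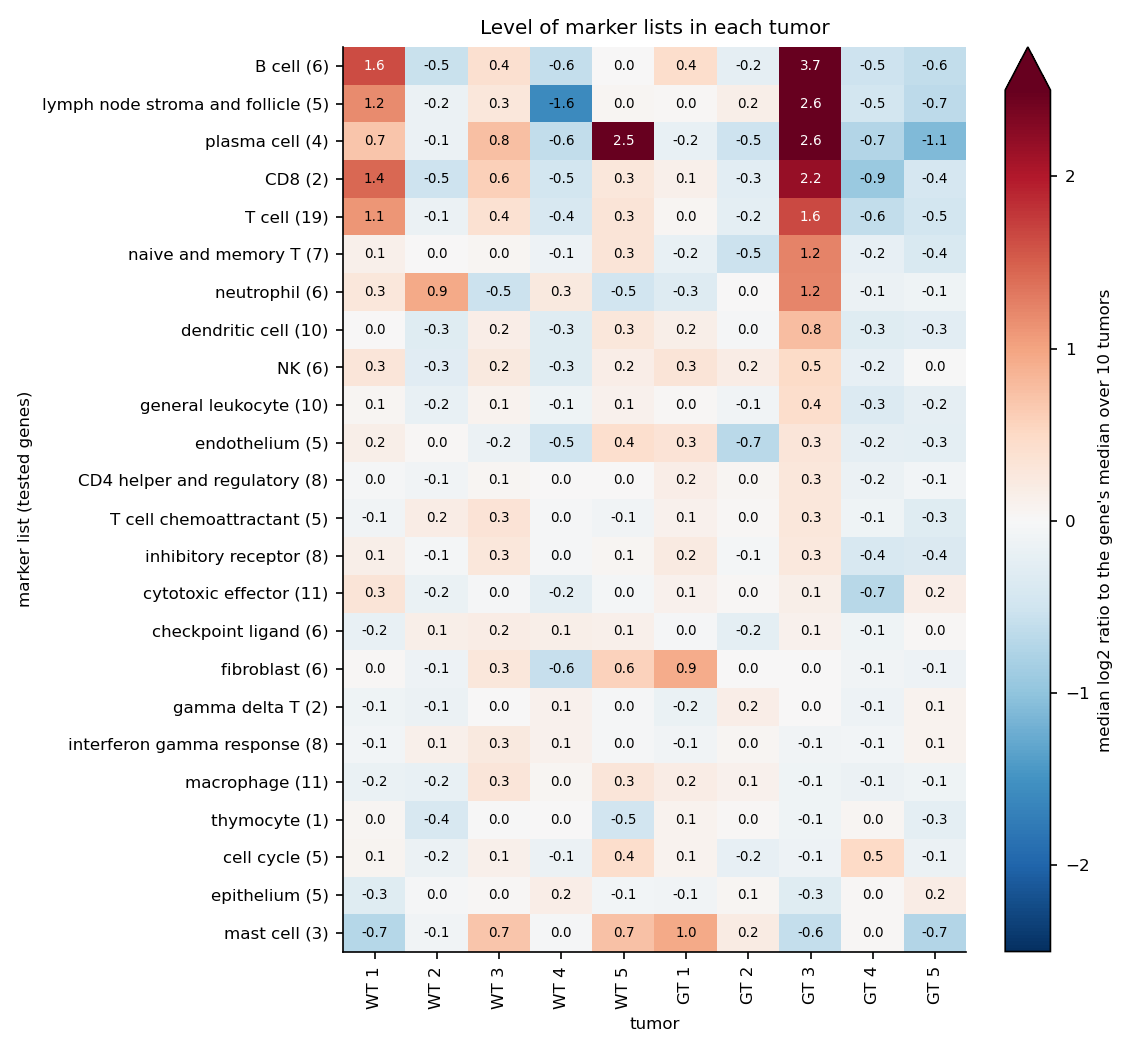
Level of each marker list (rows, with the number of tested genes) in each tumor (columns) as the median log2 ratio to the gene's median over the 10 tumors. Gene trap replicate 3 (GT 3) is dark for the B cell (3.69), lymph node (2.61), plasma cell (2.60), CD8 (2.17) and T cell (1.64) lists. It is pale for the macrophage (-0.11) and cytotoxic effector (0.14) lists. The plasma cell list is also dark in wildtype replicate 5 (2.54). Wildtype replicate 1 (WT 1) shows the same order at lower levels for B, CD8 and T cells. The CD8 list holds 2 genes, and *Cd8b1* passed the minimum mean only with GT 3 included.

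**Figure D5:**
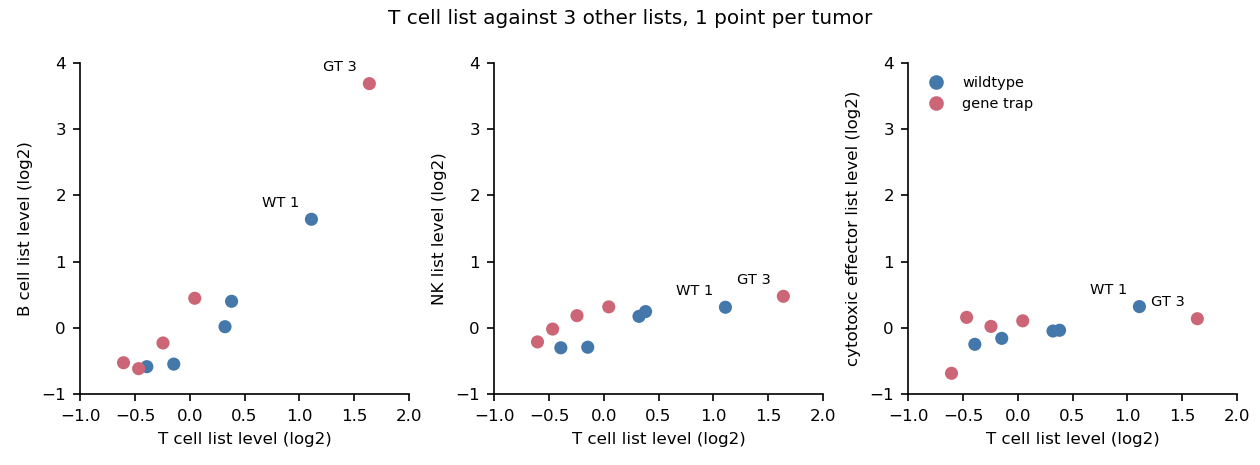
Level of the B cell, NK and cytotoxic effector lists (y axes, log2) against the level of the T cell list (x axis, log2), 1 point per tumor. At T cell levels of 1.11 (WT 1) and 1.64 (GT 3), the B cell list reaches 1.64 and 3.69, whereas the NK list reaches 0.31 and 0.48 and the cytotoxic list 0.32 and 0.14.

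Lists of signals that act on T cells were described in the same way. The T cell chemoattractant list (5 of 7 tested), led by *Cxcl16*, *Ccl21a* and *Ccl5*, was at 0.28 in gene trap replicate 3 and between -0.30 and 0.34 in the other 9. With a mean over the genes in place of the median it was at 0.58, and *Ccl21a* and *Ccl5* were highest in that tumor, at 3.58 and 1.81 times their medians, while *Cxcl16* was at 1.04. The checkpoint ligand list (6 of 7 tested), led by *Nectin2*, *Lgals9* and *Pvr*, was at 0.10 against -0.23 to 0.18. The interferon gamma response list (8 of 8 tested), with *Irf1* and *Ifngr1* among the most abundant, was at -0.083 in gene trap replicate 3. The other 9 tumors lay at -0.081 to 0.25, so gene trap replicate 3 did not stand apart from the lowest of them.

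The genotypes were compared over the same lists gene by gene, and 0 genes of any list had a limma adjusted p under 0.05. In the T cell list 5 of 19 genes were higher and 14 lower in gene trap tumors, the median was -0.23 on the log2 scale and 0 genes with an unadjusted p under 0.05. Without gene trap replicate 3, 16 of 18 tested T cell genes were lower, the median was -0.56 and 4 had an unadjusted p under 0.05, against 2.91% of all genes in that fit. The median over all tested genes was 0.00 in that fit, and *Trac* did not pass its minimum mean. Wildtype replicate 1, second for this list at 1.11, stayed in the fit, and the list was not compared without it. The naive and memory list had a median of 0.01 with all tumors and -0.37 without gene trap replicate 3. The B cell list changed from 6 of 6 genes higher, with a median of 0.19, to 5 of 5 lower, with a median of -0.44. *Spib* did not pass the minimum mean without that tumor. In the NK list 5 of 6 genes were higher in gene trap tumors, and 1 of 6, *Cd244a* (log2 fold change 0.45), had an unadjusted p under 0.05, against 2.28% of all genes. Without gene trap replicate 3 *Cd244a* was at 0.34 on the log2 scale, and 0 of the 6 had an unadjusted p under 0.05. The medians of the cytotoxic effector, inhibitory receptor and CD4 helper and regulatory lists were -0.07, -0.11 and 0.04 between genotypes. In the interferon gamma response list 2 of 8 genes had an unadjusted p under 0.05, and in the lymph node stroma and follicle list 1 of 5. The share over all genes was 2.28%, and no gene of either list had an adjusted p under 0.05. The plasma cell list had a median of -0.93 with all tumors. Without gene trap replicate 3 its median was -1.74, and 3 of 4 genes had an unadjusted p under 0.05, against the 2.91% of all genes. Wildtype replicate 5, at 2.54 for this list, stayed in that fit, and the list was not compared without it.

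The likeness of each gene to the T cell receptor genes was measured as Pearson's r over tumors between its log2 value and the mean log2 value of *Cd3e* and *Cd3g*. These values share libraries and tumor makeup, and r is given as a description. *Cd8a* was at 0.98 over 10 tumors and 0.95 over the 8 without gene trap replicate 3 and wildtype replicate 1, and *Cd4* at 0.96 and 0.88. *Nkg7* was at 0.68 and 0.65, *Prf1* at 0.40 and -0.23, *Gzmb* at 0.19 and 0.33, *Foxp3* at -0.14 and 0.36 and *Pdcd1* at 0.02 and 0.69. *Cd4* and *Cd8a* therefore followed *Cd3e* and *Cd3g* also in the tumors with ordinary levels, and for *Prf1* and *Foxp3* the sign depended on the 2 high tumors. The value of *Pdcd1* also depended on these tumors, with 0.02 when they were included and 0.69 when they were not. Between *Foxp3* and *Cd4*, r was -0.0044 over 10 tumors and 0.72 over the 8.

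Outside the set, the 8 tested genes most alike over the 10 tumors included *Rac2* (0.97), *Traf3ip3* (0.95), *Stat4* (0.94), *Themis* (0.94), *Selplg* (0.94), *Nav3* (0.94) and *Arhgap45* (0.94). *Rac2*, a GTPase of leukocytes, was 332 in gene trap replicate 3, and the other 9 tumors lay between 113 and 221. Without gene trap replicate 3 the 8 genes most alike were *Rac2* (0.96), *Prkar1b*, *Gm9747*, *Sept6*, *Elmo1*, *Tmtc1*, *B4galt6* and *Akap12*, so that *Rac2* alone was on both lists.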

How the data were processed

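Total RNA from primary mammary tumors was isolated with Trizol and made into stranded libraries (TruSeq Stranded Total RNA). The authors deposited a table of 23609 genes, a signal made of estimated read counts after median ratio normalization. The submitters' processing notes name Partek, STAR (version 2.7.8a), DESeq2 and mm39, and the counter and annotation are not given in the sources used here. The labels describe 16 tumors, 8 per group. Of the 16 columns, 10 were matched to a tumor by name, the columns marked Con to wildtype and Hypo to gene trap, and 6 columns named by animal numbers were not used. Values were fractions with 0 zeros and summed to between 31995078 and 42153593 per tumor, so whole reads and depth could not be recovered, and limma replaced the count-based test of the plan.

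Symbols were matched for 22899 (97.0%) genes. The log2 of each value plus a pseudocount of 1 was fitted for the 21034 genes whose mean was 10 or more. The fit used limma 3.58.1 in R 4.3.3, with the variance trend and genotype alone as a factor, and p-values were adjusted by Benjamini-Hochberg. Single genes and ratios were tested by exact permutation (two-sided, 252 arrangements of 5 and 5 tumors), whose smallest p is 0.00794, and calculations were tested on simulated data. Replicates are tumors of littermates. Lengths and overlaps came from GENCODE M21 (GRCm38), and no coordinates of the mm39 files are given. Motif counts used RefSeq promoter windows. The members and the marker lists were chosen with earlier results of these data known. Named genes are the members, the 3 most abundant tested genes of each list, any list gene with an adjusted p under 0.05, the 8 genes most like *Cd3e* and *Cd3g* with and without gene trap replicate 3, *Resf1*, *Ptprc* and *Epcam*. *Ccdc22*, *Klf2*, *Klrd1*, *Klrb1c*, *Tbx21*, *Klrc1*, *Ncr1*, *Gzma* in the NK list, *Fcer2a*, *Spib*, *Trac*, *Il2ra*, *Tnfrsf4* and *Ikzf4* were added after their values were seen. Some genes that the rule covers are not reported here. Alternatives were other filters, other pseudocounts, leaving out each tumor, quantile normalization, no trend, array weights and a replicate block. Plots were made in Python 3.11.15 with matplotlib 3.10.9.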

Additional observations from a re-analysis of the deposited data

Results flagged for a closer look

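In each group of 5 tumors, a value was singled out when its gap to the nearest other tumor was over 0.71 of the group's range (Dixon's test). Of 90 groups of values examined, 17 had such a tumor, and 11 of the 17 were in gene trap replicate 3. Chance alone singles out about 1 in 20 groups, but the genes and lists were chosen with a high lymphocyte score of this tumor known, so the count is a description and no test. For the T cell receptor and coreceptor genes this tumor was at 32.5 for *Cd3e* (the rest of its group 3.68 to 10.5), at 70.2 for *Cd3g* against 17.8 to 29.2, at 140.4 for *Cd4* against 29.2 to 49.999 and at 123.9 for *Cd8a* against 17.01 to 36.7. Its ratio of *Foxp3* to *Cd4* was 0.252 against 1.01 to 1.22. Among list levels in gene trap replicate 3, on the log2 scale, the T cell list was at 1.64 against -0.61 to 0.04, the naive and memory T cell list at 1.25 against -0.54 to -0.19 and the B cell list at 3.69 against -0.62 to 0.45. The plasma cell list was at 2.60 there against -1.10 to -0.18, the neutrophil list at 1.23 against -0.32 to 0.00 and the lymph node stroma and follicle list at 2.61 against -0.66 to 0.16.

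The other 6 lay in 6 different tumors. *Pdcd1* was 36.3 in wildtype replicate 3, where the rest of its group lay between 18.2 and 22.5. The ratio of *Prf1* to *Cd3e* was 4.51 in wildtype replicate 2 and elsewhere in its group between 0.674 and 0.872. The checkpoint ligand list was at -0.18 in wildtype replicate 1 against 0.12 to 0.18. The cytotoxic effector list in gene trap replicate 4 was at -0.69 against 0.02 to 0.16, the fibroblast list at 0.92 in gene trap replicate 1 against -0.13 to 0.02, and *Epcam* at 25278 in gene trap replicate 5 against 21412 to 22314.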

How the results depend on the processing

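Under 20 alternatives, 0 genes and 0 of the 9 T and NK cell genes had a limma adjusted p under 0.05, and between 308 and 692 genes had an unadjusted p under 0.05, none of them one of the 9. The median log2 fold change of the 9 was -0.35 to 0.11 with each tumor left out and -0.41 to 0.02 otherwise, although only *Cd4* and *Gzmb* passed a minimum mean of 50. With single tumors left out, the sign of the log2 fold change was not fixed for *Cd3g* (-0.46 to 0.052), *Cd4* (-0.35 to 0.20), *Cd8a* (-0.59 to 0.11), *Foxp3* (-0.0077 to 0.15) and *Nkg7* (-0.17 to 0.48), nor for the log2 ratio differences of *Cd3g* to *Cd3e* (-0.0016 to 0.38), *Foxp3* to *Cd4* (-0.12 to 0.51), *Gzmb* to *Cd3e* (-0.26 to 0.63) and *Pdcd1* to *Cd3e* (-0.30 to 0.48), and between 0 and 2 of the 9 ratios had an exact p under 0.05. Other reversals were *Cd4* (-0.47) and *Prf1* (-0.11) with gene trap replicates 2 and 3 left out, *Cd8a* (0.028) with array weights and *Pdcd1* to *Cd3e* (0.023) with no pseudocount, none past the threshold, and the cause was not tested. The levels in gene trap replicate 3 moved to 0.47 for the CD4 helper and regulatory list and 0.58 for the T cell chemoattractant list when a mean replaced the median, and to 0.32 for the gamma delta T cell list with no filter. Whether tumors with the same number share more than the number is not given in the labels. The deviations of the 5 pairs had correlations of -0.16 to 0.15, and 2 of 10 tumors correlated best with their own number. With the replicate block, 0 genes were called, 426 had an unadjusted p under 0.05 and the median of the 9 was -0.14. For the ratios, sign flips over 5 pairs cannot give an exact p below 0.0625, so that test could not pass the threshold. TMM scaling and DESeq2 need counts and were not run. The depth of each tumor is unknown, and low values such as those of *Cd3e* limit precision.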
